A study of Mus musculus with 12 samples.

Results

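Dendritic cells (DCs) sorted from the spleens of untreated alymphoplasia (aly) mice were compared with DCs of untreated wild-type (WT) littermates, to describe how their transcriptomes differ at rest. Members are arrays, taken by their genotype and treatment labels and by no measured value: 6 of the 12 arrays of the series, 3 of untreated aly and 3 of untreated WT. The mice called WT were heterozygous littermates, so the control cells also carried 1 aly allele of Map3k14, the gene of the NF-kB-inducing kinase (NIK). Each array held total RNA from DCs pooled over 3 mice, and the labels give no age, strain background or sex. The cells were selected on beads by CD11c, the integrin chain that Itgax encodes, and then sorted by flow cytometry. The other 6 arrays, 3 per genotype, came from mice given LPS (25 micrograms) by intraperitoneal injection together with the agonistic CD40 antibody FGK4.5 (100 micrograms), 6 hours before the DCs were taken. They enter here through the shared estimate of the spread and as separate arrays in which the genes found at rest are read again.

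NIK is the kinase that starts the non-canonical NF-kB pathway. Receptors such as CD40, the lymphotoxin beta receptor and the BAFF receptor release NIK from constant degradation, NIK activates IKK alpha, and the precursor protein of Nfkb2 is then processed to a subunit that pairs with RelB. The aly mutation is a single amino acid change in NIK that impairs this signalling, and aly mice lack lymph nodes and have a disorganised spleen. Splenic DCs fall into conventional subsets, a CD8 alpha positive one that cross-presents antigen (cDC1) and a CD11b or CD4 positive one (cDC2), beside plasmacytoid DCs. The same organ holds red pulp macrophages, which clear aged red cells under control of the transcription factor Spi-C, and marginal zone macrophages, which take up particles from blood.

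Levels below are array intensities on a linear scale, as deposited, listed for replicates 1, 2 and 3 in that order. A difference is the mean log2(intensity + 16) of aly minus that of WT, with its standard error from a limma fit to all 12 arrays, and genes with an adjusted p under 0.05 (Benjamini-Hochberg, over all 15019 genes tested by limma) are spoken of as called. With 3 arrays a group, an exact permutation test of a single gene cannot go below p = 0.1. The p-values measure the spread between pools of 3 mice.

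Several properties of the arrays moved with the genotype. The mean log2 ratio of 3' over 5' control probe sets, higher where RNA is shorter, was 1.72, 1.62 and 1.40 on the WT arrays and 2.33, 2.48 and 2.70 on the aly arrays, without overlap. Sex-linked transcripts differed as well. Xist, the RNA that silences an X chromosome in female cells, read 1.9, 1047 and 1022 in WT and 3991, 1984 and 3388 in aly. Eif2s3y, a Y-linked gene, read 1559.5, 1134 and 554 in WT and 3.2, 0.9 and 276 in aly, and Kdm5d, also Y-linked, read 285, 119.6 and 85.9 against 4.5, 1.6 and 50.4. Signal of both kinds was thus present in WT pools 2 and 3 and in aly pool 3, Xist was near 0 in WT pool 1, and Eif2s3y was near 0 in aly pools 1 and 2. Poly-A spike-in controls averaged 4.01 and 3.25 on the replicate 1 arrays and 54.9 to 130 on the replicate 2 and 3 arrays. Among treated arrays the log2 3' over 5' ratio was 1.83, 1.37 and 1.48 in WT and 5.66, 3.11 and 2.17 in aly, again without overlap. Treated aly replicate 1 stood apart, with the highest ratio. Chosen after their values were seen, Xist and the Y-linked genes stand outside the rule for named genes.

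At rest, 83 of 15019 genes were called between the genotypes (0.553%). Of these, 75 were higher in aly (0.499% of genes tested), by 1.57 to 4.69 log2 units, and 8 were lower (0.0533%). No called gene overlapped between the 3 aly and the 3 WT arrays, a pattern that 12.9% of all genes showed upwards and 9.86% downwards. At an unadjusted p under 0.05, 1570 genes passed (10.5%). The median difference of all genes was 0.10, and 57.7% of genes read higher in aly. At the share called, most short gene lists would hold no call, so 0 calls in a list do not show unchanged genes.

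**Figure D1:**
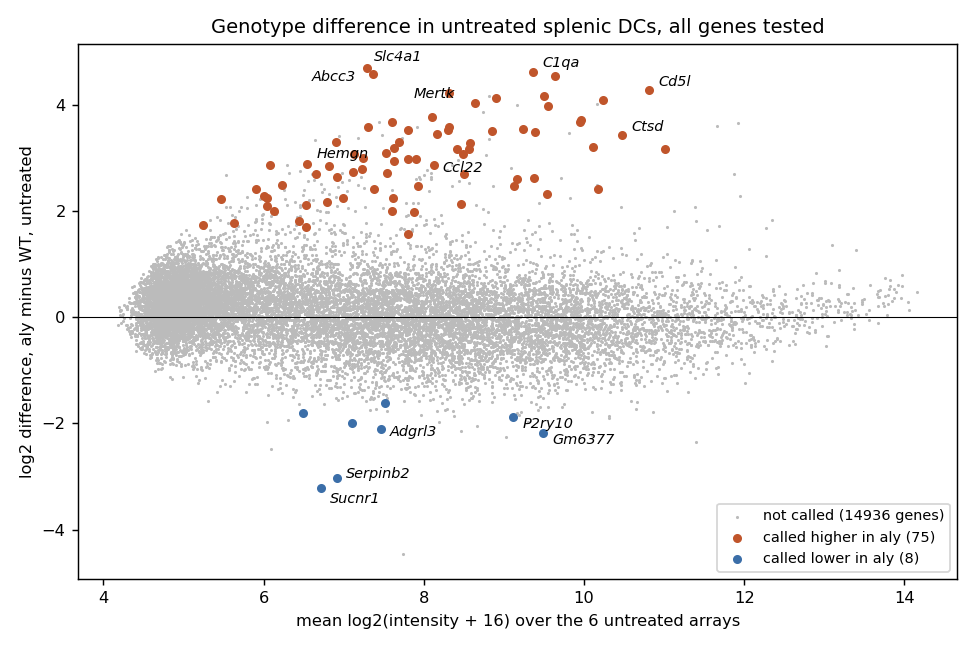
Difference between aly and WT (log2 units, vertical axis) against the mean log2(intensity + 16) of the 6 untreated arrays (horizontal axis), 1 point per gene. The 75 genes called higher (orange) outnumber the 8 called lower (blue), and the genes not called (grey) lie around the median of all genes, 0.10.

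The count rested heavily on which arrays set the spread. Without treated aly replicate 1, which takes no part in the difference but widens the spread, 396 genes were called, 288 higher and 108 lower, and the 6 untreated arrays alone gave 393, 281 higher and 112 lower. Leaving out 1 untreated array from all 12 gave 109 calls without WT replicate 1, 1 without WT replicate 2, 4 without aly replicate 2, and 0 without WT replicate 3, aly replicate 1 or aly replicate 3. With treated aly replicate 1 left out as well, the same step gave 23 to 282 calls, the lowest without WT replicate 3. Same-numbered arrays deviated together, and with the replicate number as a block 133 genes were called (0.886%). With the 3' over 5' ratio as a covariate 133 were called, 79 of them among the 83. With the level of Eif2s3y and Kdm5d as a covariate, an alternative added after seeing the data, only Pilra, an inhibitory receptor of myeloid cells named here for that reason alone, was called (3.99 ± 0.55, adjusted p = 0.044), and 997 genes passed an unadjusted p under 0.05. In that fit the median difference of the 75 genes was 3.35, against 2.98 without the covariate. Since the called genes do not overlap between the genotypes, leaving out an array cannot turn their sign.

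Genes of red pulp macrophages made up the clearest group, on a list chosen with earlier results of these data known. Of 17 list members measured, all 17 read higher in aly (57.7% of all genes did), 9 were called higher (0.499% of all genes) and 0 lower. Of the 17, 14 did not overlap between the genotypes (12.9% of all genes lay higher without overlap). Their median difference was 3.65, against 0.10 over all genes. With the replicate block 12 were called, and 12 without WT replicate 1, but 0 without WT replicate 2, WT replicate 3, aly replicate 1 or aly replicate 3, and 1 without aly replicate 2. The median was 3.20 to 4.63 over these 6 fits. On the 6 untreated arrays alone 14 were called. Whether more such cells, or more of their RNA per cell, lay behind a level cannot be told apart in bulk RNA of sorted cells.

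The chains of C1q, the recognition molecule of the classical complement pathway, rose or stood highest in aly. C1qa read 638, 35.2 and 54.6 in WT and 5172, 2701 and 2454 in aly. Every aly array was above every WT array, and WT replicate 1 stood far above the other WT arrays. The difference was 4.62 ± 0.80 (adjusted p = 0.024), a 24.5-fold change, and 5.76 without WT replicate 1. C1qc read 784, 62.3 and 55.9 against 4501, 3781 and 3275, with a difference of 4.54 ± 0.85 (adjusted p = 0.027). C1qb, at 1537, 122 and 93.6 against 6335, 3689.6 and 4178, had a difference of 4.01 ± 0.99 that was not called (adjusted p = 0.093), though it was with the replicate block (adjusted p = 0.0076). In all 3 genes the order of arrays was alike: WT replicates 2 and 3 lowest, WT replicate 1 between, aly highest.

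Spic encodes the transcription factor Spi-C, an ETS family member required for red pulp macrophages. Its intensity was 207, 81.6 and 76.4 in WT and 1622, 546 and 1569 in aly, again without overlap, and it rose by 3.17 ± 0.54 log2 units (adjusted p = 0.024). A second probe set of Spic gave 3.22. The upstream sequences of 2 of the C1q genes, which lie side by side, and of Spic are shown because these genes rose or stood highest together and their promoters could be read from RefSeq (GRCm38.p6). Each window runs from 250 bases before the annotated start to 50 bases after it, on the minus strand, printed 5′ to 3′. C1qb lies at chr4:136886151-136886450, C1qc at chr4:136892865-136893164 and Spic at chr10:88682974-88683273. Capitals mark AGGAAGT, a core that ETS factors such as PU.1 and Spi-C are known to bind, found here on the opposite strand as ACTTCCT.
C1qb: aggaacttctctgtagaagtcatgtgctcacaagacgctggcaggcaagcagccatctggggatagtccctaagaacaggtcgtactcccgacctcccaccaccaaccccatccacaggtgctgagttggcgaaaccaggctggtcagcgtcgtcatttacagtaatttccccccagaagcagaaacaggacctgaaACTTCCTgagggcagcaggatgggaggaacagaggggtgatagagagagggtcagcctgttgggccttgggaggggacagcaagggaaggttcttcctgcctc
C1qc: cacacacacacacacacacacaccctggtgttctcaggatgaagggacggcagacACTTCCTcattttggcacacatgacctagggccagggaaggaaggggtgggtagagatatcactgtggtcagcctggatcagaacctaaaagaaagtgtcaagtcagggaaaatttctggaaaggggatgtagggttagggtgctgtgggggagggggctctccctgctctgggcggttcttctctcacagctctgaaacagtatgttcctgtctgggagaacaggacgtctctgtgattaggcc
Spic: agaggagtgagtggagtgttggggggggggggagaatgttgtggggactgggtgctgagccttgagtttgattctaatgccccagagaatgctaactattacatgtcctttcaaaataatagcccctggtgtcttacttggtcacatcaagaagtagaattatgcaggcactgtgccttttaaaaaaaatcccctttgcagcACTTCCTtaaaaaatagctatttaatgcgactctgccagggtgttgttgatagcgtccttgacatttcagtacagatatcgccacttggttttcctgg
Each of the 3 windows held 1 match. Of 32851 promoters of this length in the table, 3072 held the motif on either strand (9.35%). A promoter was found for 66 of the 75 genes called higher, and 13 of their 81 promoters (16%), of 12 genes, held it. A match of 7 letters is a description of the window and says nothing of binding.

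Receptors and secreted proteins of red pulp macrophages followed the same pattern. Mertk, a receptor kinase for dying cells, read 311, 48.1 and 29.7 in WT and 1341, 1332 and 2287 in aly and rose by 4.03 ± 0.69 (adjusted p = 0.024). Axl, its relative, read 176, 37.1 and 24.2 against 798, 1061 and 1200.2 and rose by 3.78 ± 0.78 (adjusted p = 0.043). Both were low on WT replicates 2 and 3 and intermediate on WT replicate 1. Cd5l, which macrophages secrete, read 2477, 159.6 and 137 in WT and 7858, 5656 and 11292 in aly and rose by 4.29 ± 0.92, at the edge of the threshold (adjusted p = 0.05 after rounding up). Mrc1, the mannose receptor, rose by 4.17 ± 0.81 (adjusted p = 0.031), from 745, 39 and 103 to 3205, 2464 and 3632. Fcna, the lectin ficolin A, rose by 4.10 ± 0.78 (adjusted p = 0.028), and Cd163, the haemoglobin scavenger receptor, by 3.53 ± 0.68 (adjusted p = 0.03).

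Some genes that define these macrophages were not called. Vcam1, an adhesion molecule of red pulp macrophages, read 3874, 376 and 513 in WT and 8809.9, 9426 and 17067 in aly, a difference of 3.60 ± 0.85 (adjusted p = 0.078, and 0.042 with the replicate block). Slc40a1, the iron exporter ferroportin, read 4492, 576 and 483 against 11521, 10588 and 21525 (3.65 ± 1.17, adjusted p = 0.23). Hmox1, which opens the haem ring, read 514, 42 and 72.7 against 3318, 1295 and 666 (3.36 ± 0.77, adjusted p = 0.065, and 0.039 with the block). These 3 had large differences and a wide spread, without overlap of the genotypes. Adgre1, the F4/80 antigen, was the smallest of the list at 0.43 ± 0.67, with 2238, 2386 and 881 in WT and 1573, 1887 and 3897 in aly, so the genotypes overlapped. It is named outside the rule, as the list's lowest member.

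Summed over the 17 genes, intensity was 23879, 6143 and 5288 in WT and 68644, 55649 and 87510 in aly. WT replicate 1 was thus well above the other WT arrays and below all aly arrays. Between the replicate 1 arrays the median difference was 2.03, and between replicates 2 and 3 it was 4.80. With the Y-linked level as a covariate the median was 4.46 and 0 of 17 were called, and with the 3' over 5' ratio it was 3.69 and 10 were called. Of the 6 marginal zone macrophage genes, only Stab2 was called (3.17 ± 0.56, adjusted p = 0.026), a scavenger receptor that sinus endothelium also carries. Marco, the scavenger receptor that defines these cells, read 498, 19.8 and 48.3 against 1442, 1507 and 3115 (4.17 ± 0.98, adjusted p = 0.076), and was called with the block (adjusted p = 0.012). Cd209b, the lectin SIGN-R1 of the same cells, went the other way, at 92.6, 72.6 and 74.5 against 19.6, 37.5 and 57.6 (-0.88 ± 0.40, adjusted p = 0.46). The median of the 6 was 2.04, and 3 were called with the block, against 1 without it (0.499% of all genes were called higher without it).

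**Figure D2:**
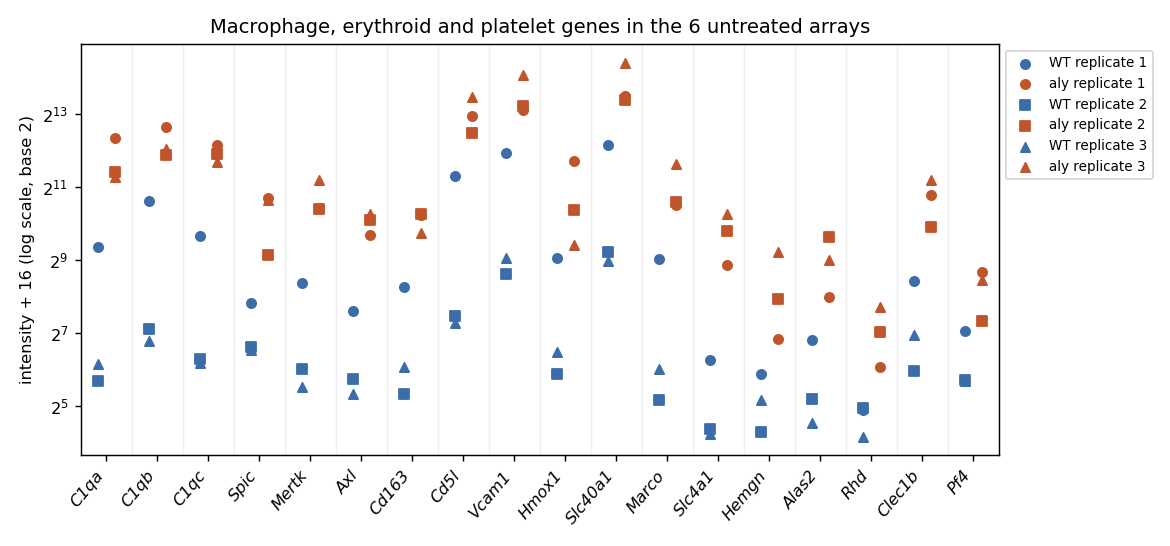
Intensity + 16 on a log axis for macrophage, erythroid and platelet genes, 1 point per untreated array, with blue for WT, orange for aly and the marker shape for the replicate. Aly arrays lie above WT arrays for each gene shown, and WT replicate 1 (blue circles) lies above WT replicates 2 and 3 for most of them. The genes were picked from their lists, and members that overlap or go the other way, such as Adgre1, Gp9 and Cd209b, are not shown.

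Genes of red cell precursors formed the next group. Slc4a1, band 3 of the red cell membrane, read 59.6, 4.6 and 2.6 in WT and 445, 864 and 1209.5 in aly. All aly arrays were high, WT replicates 2 and 3 were near 0 and WT replicate 1 was low. The difference was 4.69 ± 0.71 (adjusted p = 0.018), the largest of the called genes in this fit. Without WT replicate 1 it was 5.34, below C1qa at 5.76, and with WT values near 0 its size depends on the offset, at 6.18 with an offset of 1 and 3.35 with an offset of 64. The mean of its probe sets gave 3.18. Other probe sets of the gene gave 0.48 to 4.36. Hemgn, a nuclear protein of erythroid cells, read 42.4, 3.3 and 19.6 against 97.9, 228 and 575 and rose by 2.89 ± 0.61 (adjusted p = 0.047), which was not called with the replicate block (adjusted p = 0.054).

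Of the 20 erythroid genes measured, 18 read higher in aly, 14 of them without overlap (12.9% of all genes). Of the 20, 2 were called higher (0.499% of all genes) and 0 lower. The median difference was 1.38. Alas2, the erythroid enzyme that starts haem synthesis, read 95.4, 20 and 6.9 against 237, 774 and 496 (3.37 ± 0.83, adjusted p = 0.091, and 0.036 with the block). Rhd, of the Rhesus complex, read 13.7, 14.9 and 1.8 against 50.7, 112 and 192 (2.26 ± 0.50, adjusted p = 0.055). Epor, the erythropoietin receptor, read 62.2, 21.8 and 17.2 against 140.3, 100 and 136 (1.60 ± 0.39, adjusted p = 0.09), and Klf1, a transcription factor of the lineage, 19.6, 19.1 and 29.4 against 62.6, 49.1 and 51.2 (0.87 ± 0.34, adjusted p = 0.36). None of these 4 was called at 12 arrays, although neither genotype overlapped the other in any. Without WT replicate 1, 3 members were called, and 0 when WT replicate 2, WT replicate 3 or any 1 of the aly arrays was left out. Without treated aly replicate 1, 10 were called, and 8 on the 6 untreated arrays alone. Summed intensity was 4925, 4383 and 4397 in WT and 6170, 10109 and 11262 in aly, a smaller step than that of the macrophage list. A sum weighs the highest members most, and Slc4a1 is a small part of it in WT, so the steps are not directly comparable. With the Y-linked level as a covariate the median was 1.06 and 0 were called.

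Among platelet and megakaryocyte genes 1 of 10 was called higher (0.499% of all genes were). Clec1b, the podoplanin receptor CLEC-2 of platelets, read 325, 45.9 and 106 in WT and 1727, 928 and 2303 in aly and rose by 3.51 ± 0.63 (adjusted p = 0.027). The platelet granule gene Pf4 read 116, 36.3 and 34.8 against 390.1, 144 and 329.9 (2.00 ± 0.57, adjusted p = 0.16). Itga2b, the platelet integrin, overlapped between the genotypes (0.76 ± 0.49), as did Gp9 (-0.32 ± 0.49), whose intensities were 4.4, 20.3 and 5.3 in WT and 4.7, 4 and 3.6 in aly. The list's median was 0.78, and no other member was called.

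Markers of the remaining spleen cells were not called in either direction, in 0 of 11 monocyte, 0 of 13 neutrophil, 0 of 14 B cell, 0 of 7 plasma cell, 0 of 8 T cell, 0 of 12 natural killer (NK) cell, 0 of 7 mast cell, basophil and eosinophil, and 0 of 13 stromal and endothelial genes. Over all genes 0.553% were called. With the replicate block, 1 monocyte gene was called, and on the 6 untreated arrays alone 1 monocyte, 1 B cell and 1 T cell gene. Without treated aly replicate 1 these lists again gave 1 call each. In that fit 1 mast cell, basophil and eosinophil gene and 1 stromal and endothelial gene were called too. Of the 13 stromal and endothelial genes 12 read higher in aly (57.7% of all genes did), 5 without overlap (12.9% of all genes). Medians were 0.23 for monocytes, 0.88 for neutrophils, 0.17 for B cells, 0.06 for plasma cells, 0.70 for T cells, 0.28 for NK cells, 0.18 for mast cells, basophils and eosinophils, and 0.81 for stroma and endothelium. The monocyte gene called with the block was Cd14, the LPS co-receptor, at 251, 73.8 and 146 in WT and 911, 714 and 1098 in aly (2.53 ± 0.65, adjusted p = 0.11, and 0.033 with the block). Csf1r, the receptor of macrophage colony-stimulating factor, read 8948, 4233 and 4223 against 16774, 10566 and 15660.3 (1.37 ± 0.63, adjusted p = 0.46).

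The neutrophil genes S100a8 and S100a9 were high on 1 array. Of the 13 neutrophil genes measured 10 read higher and 3 lower in aly, with Mmp9 the lowest (-1.75, not called). S100a9, a calcium-binding protein of neutrophils, read 11.8, 25.9 and 59.4 in WT and 60.1, 29.2 and 1268 in aly, and S100a8, its partner, 16.6, 34.5 and 91.6 against 81.7, 86.8 and 1072. Only aly replicate 3 was high in both. Most lymphocyte genes overlapped, with 2 of 8 T cell genes and 1 of 14 B cell genes higher without overlap and 1 B cell gene lower. Over all genes, 12.9% were higher and 9.86% lower without overlap, so these counts do not set lymphocyte genes apart. Lat, an adaptor of T cell receptor signalling, read 2.3, 24.7 and 4.2 against 54.4, 48.1 and 62.5 (1.52 ± 0.37, adjusted p = 0.091, and adjusted p = 0.044 on the 6 untreated arrays alone). Blnk, an adaptor of B cell receptor signalling, read 54.8, 27.6 and 76.3 against 182, 141 and 237 (1.59 ± 0.42, adjusted p = 0.11, and adjusted p = 0.036 on the 6 untreated arrays alone). Both were higher on every aly array. Cd3g of the T cell receptor complex read 10.9, 2.4 and 12.2 against 28.9, 4.3 and 46.7, and Cd79a of the B cell receptor 32.3, 30.2 and 50.3 against 77.1, 88.5 and 22.3. Klrd1, the CD94 chain of NK receptors that some DCs also express, read 2101, 3125 and 2231 against 1283, 1007 and 1085, lower on every aly array but not called (-1.12 ± 0.72, adjusted p = 0.63).

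Genes that define DCs were present at high levels on all 6 arrays. Summed over 13 pan-DC genes, intensity was 43652, 45862 and 50566 in WT and 46000, 45416 and 40809 in aly. Such a sum weighs the highest members most, H2-Aa among them, and does not measure DC content. Itgax, the antigen of the bead selection, read 1708, 3391 and 3239.7 in WT and 2473, 2087 and 1771 in aly. Flt3, the receptor of the DC growth factor, read 1449, 854 and 1414 against 1396, 1286 and 1027, and H2-Aa, a chain of MHC class II, 13636, 16789.7 and 18523 against 20129.9, 17143 and 16471. The genotypes overlapped in all 3. The 95% interval of the difference ran from -1.85 to 1.16 for Itgax, from -1.01 to 1.06 for Flt3 and from -0.81 to 1.09 for H2-Aa, so the data leave room for a change of up to about 1 log2 unit or more in each. Zbtb46, the transcription factor of conventional DCs, read 824, 906 and 749.8 against 377, 1183 and 216 (-0.81 ± 0.79, adjusted p = 0.77). Aly replicate 2 was the highest of the 6 arrays and the other 2 aly arrays the lowest.

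No pan-DC gene was called (0 of 13, median -0.34), 4 read higher and 9 lower in aly. Kmo, an enzyme of tryptophan breakdown enriched in DCs, had the lowest difference, at 3462, 2759 and 4074 in WT and 860.1, 1402 and 1747 in aly (-1.39 ± 0.49, adjusted p = 0.28). Dpp4, the peptidase CD26, read 2509, 1871 and 2509 against 830, 891 and 1661 (-1.08 ± 0.56, adjusted p = 0.53). Both were lower on every aly array than on any WT array, as were 9.86% of all genes tested.

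The cDC1 genes did not move together. Of 16 measured, 10 read higher and 6 lower, 0 were called, and the median was 0.22. Cd8a read 2988, 1702 and 3244 in WT and 1838, 2044 and 1639 in aly, overlapping, with an interval of -1.53 to 0.58. Xcr1, the chemokine receptor that marks the subset, read 579, 418 and 1880.5 against 227, 197 and 400.2, without overlap, and its difference of -1.50 ± 0.75 did not pass (adjusted p = 0.51, interval -3.08 to 0.08). Batf3, a transcription factor the subset needs, read 1526, 1034 and 1246 against 2007, 1398 and 962 (0.15 ± 0.41). Irf8, another such factor, read 4396, 3809.8 and 5162 against 6127, 5633 and 7101 (0.50 ± 0.46). Cadm1, an adhesion molecule of cDC1, read 2168, 864 and 1932 against 3430, 3162 and 3118 (1.07 ± 0.60, adjusted p = 0.56). Irf8 and Cadm1 were higher on every aly array, and Xcr1 was lower.

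Of the 14 cDC2 genes 10 read lower in aly, 0 were called and the median was -0.39. Esam, which marks the Notch2-dependent splenic subset, read 364, 465 and 378 in WT and 233, 195 and 139.6 in aly. All 3 aly arrays were below the WT arrays, and the difference of -1.05 ± 0.38 was not called (adjusted p = 0.3, interval -1.85 to -0.24). Irf4, a transcription factor of cDC2, read 450, 512 and 512 against 292, 319 and 232 (-0.78 ± 0.33, adjusted p = 0.42), and Dtx1, a Notch target, 1443, 4293 and 1248 against 1203, 1137 and 394 (-1.26 ± 0.54, adjusted p = 0.42). Cd4 read 92.5, 270.2 and 98.4 against 91.4, 232 and 13.2 and Itgam, the CD11b chain, 39.6, 58.9 and 33.6 against 58.4, 25.4 and 28.3, both overlapping. Of the 4 members that read higher, Sirpa had the largest difference, at 964, 917 and 821 against 3671, 2239.6 and 2435 (1.58 ± 0.40, adjusted p = 0.11). It was called on the 6 untreated arrays alone (adjusted p = 0.022), and macrophages express Sirpa too. Beside these values, the red pulp macrophage sum was 55649 to 87510 on the aly arrays and 5288 to 23879 on the WT arrays, and its part in the DC values was not tested.

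Plasmacytoid DC genes gave 0 calls of 13, with a median of 0.13. Siglech, a surface lectin of these cells, was near the low end of the arrays, at 22.1, 27.3 and 33.5 in WT and 19.7, 22.3 and 9.2 in aly. Tcf4, their transcription factor, read 309, 395 and 289 against 223, 212 and 219 (-0.55 ± 0.32, adjusted p = 0.59).

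**Figure D3:**
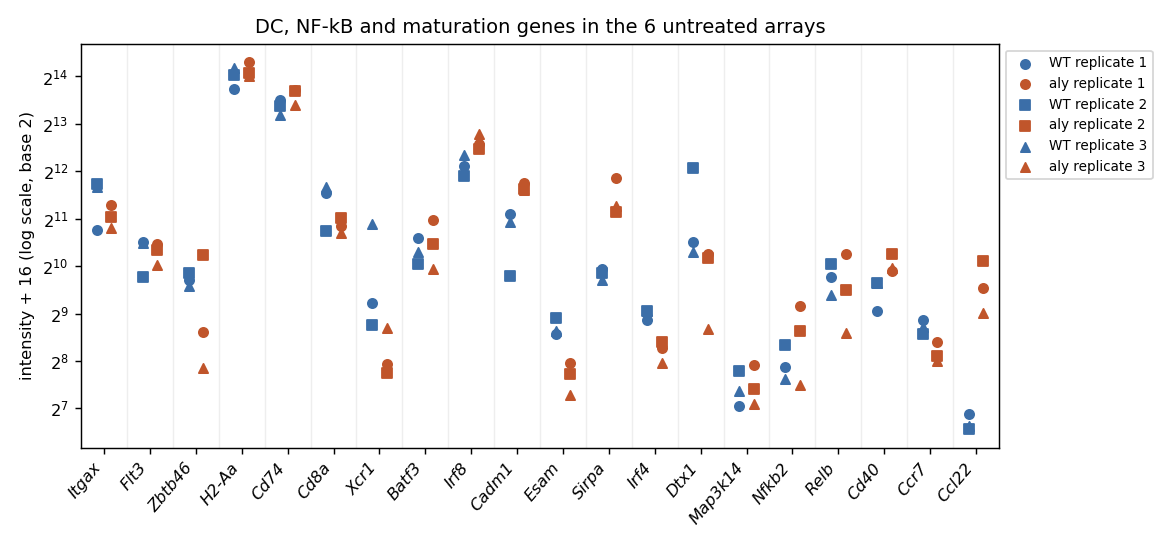
Intensity + 16 on a log axis for DC, NF-kB and maturation genes, 1 point per untreated array, with blue for WT, orange for aly and the marker shape for the replicate. Itgax, Flt3, Map3k14 and Relb overlap between the genotypes, Esam and Irf4 lie lower in aly without being called, and Ccl22 lies higher.

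The mutated gene itself kept its transcript level within the spread. Map3k14 read 117, 205 and 148 in WT and 225, 155 and 121 in aly, a difference of 0.08 ± 0.50 with an interval of -0.99 to 1.14. The aly change lies in the coding sequence, and the array does not tell the alleles apart, so this level does not check the genotype labels. Nfkb2, the precursor subunit that NIK acts on, read 219, 305 and 180.2 against 558, 379.9 and 165 (0.49 ± 0.48), and Relb, its partner, 852, 1036 and 653 against 1204, 709.5 and 369 (-0.28 ± 0.44). Cd40 read 515, 781 and 780.2 against 935, 1200 and 980.4 (0.59 ± 0.50, adjusted p = 0.73), higher on every aly array and not called. Birc3, the ubiquitin ligase cIAP2 that restrains NIK, read 2857, 2819 and 4329.8 against 1287, 1441 and 1972 (-1.08 ± 0.40, adjusted p = 0.33). Of 15 genes of the non-canonical pathway 0 were called (median 0.08), and of 9 canonical NF-kB genes 0 (median -0.08).

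Among the known chemokine and adhesion targets of the non-canonical pathway, 1 of 6 was called, and it was higher in the mutant. Over all genes, 0.499% were called higher. Ccl22, a chemokine of mature DCs and macrophages that attracts cells with the receptor CCR4, read 102, 78.2 and 82.7 in WT and 731, 1086 and 502 in aly. The 3 WT arrays lay close together, and all aly arrays were several times above them. The rise was 2.87 ± 0.45 (adjusted p = 0.019), 7.29-fold, with an interval of 1.91 to 3.82, and 2.96 without WT replicate 1. Ccl17, its neighbour in function, read 20.7, 22.7 and 11.9 against 42.4, 25.2 and 78.1 (0.84 ± 0.67, adjusted p = 0.71). The stromal targets Cxcl13, at 30.8, 10.6 and 18.9 against 38.4, 34.3 and 74.2, and Cxcl12, at 44.7, 31.3 and 27.7 against 58.4, 35.1 and 223, were not called. Icam1, an adhesion molecule, overlapped (-0.07 ± 0.42).

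Maturation genes gave no call. Of 19 measured 0 were called, 12 read higher and 7 lower, and the median was 0.14. Ccr7, the receptor that guides mature DCs to T cell zones, read 447, 362 and 406 in WT and 324, 261 and 242 in aly (-0.54 ± 0.38, adjusted p = 0.67, interval -1.34 to 0.27). The costimulatory genes Cd80, at 53.8, 111 and 122 against 67.2, 70.8 and 71.2, and Cd86, at 1389.9, 1100.1 and 2321 against 1611, 1397 and 2109.7, overlapped. Cd274, the checkpoint ligand PD-L1, was the lowest of the list. Its intensity was 619, 653 and 645 in WT and 262, 192 and 187 in aly, with close replicates and no overlap, and the difference of -1.53 ± 0.37 missed the threshold (adjusted p = 0.083). On the 6 untreated arrays alone it was called (adjusted p = 0.021).

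Chemokine genes gave 1 call of 23, Ccl22 (0.499% of all genes were called higher). Their median was 0.61, and 8 members were higher without overlap (12.9% of all genes were). Chemokine receptors gave 0 of 13 (median -0.38) and cytokines 0 of 16 (median 0.07). Il18, a cytokine that macrophages also make, read 642, 481 and 483 in WT and 1437, 1317 and 2153 in aly (1.56 ± 0.43, adjusted p = 0.14). Of 25 interferon-stimulated genes 0 were called, with a median of -0.00. Iigp1, an interferon-induced GTPase, had the largest difference of that list, at 181, 42.9 and 98.8 against 677, 408 and 1004 (2.61 ± 0.62, adjusted p = 0.082, and 0.028 with the block). Rsad2, which encodes viperin, read 1088, 983 and 684 against 1929.6, 3754 and 3473 (1.68 ± 0.63, adjusted p = 0.33), whereas Irf9, part of the interferon signalling complex, read 668, 814 and 693 against 391, 365 and 426 (-0.85 ± 0.39, adjusted p = 0.46). Both were without overlap, in opposite directions.

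Antigen presentation genes gave no call. Summed over 11 MHC class II genes, intensity was 81036, 90294 and 88338 in WT and 94202, 85196 and 93919 in aly, and 0 were called (median -0.30). H2-DMb2, of the peptide exchange factor H2-M, was the lowest of them, at 3245, 4252 and 4588 against 1356, 3186 and 1312 (-1.15 ± 0.45, adjusted p = 0.37). Of 15 MHC class I genes 0 were called, 12 read higher and the median was 0.44. Of 17 Toll-like receptor and adaptor genes 0 were called (median 0.11). Tlr1, which pairs with Tlr2 for lipopeptides, read 591, 1303 and 879.6 against 490, 327 and 309.5 (-1.22 ± 0.44, adjusted p = 0.29), and Tlr4, the LPS receptor, 136, 48.7 and 57.5 against 184, 199 and 428 (1.57 ± 0.64, adjusted p = 0.39).

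Lists of phagocyte functions held further rises, although most of the 75 genes called higher are in none of the lists used here. They share members with the macrophage list, so they are no separate evidence for it. Over all genes tested, 0.499% were called higher. Of 19 genes for engulfment of dead cells 6 were called higher (C1qa, C1qc, Mertk, Axl, Stab2 and Itgb5) and 0 lower, while the median of all 19 was 0.45. Itgb5, the beta chain of a bridging integrin for dying cells, read 277, 71.4 and 96.2 in WT and 1355, 686 and 807 in aly (2.70 ± 0.47, adjusted p = 0.024), and its 3 other probe sets gave 3.90 to 3.99. Of 15 haem and iron genes 3 were called (median 0.95). These were Cd163, Lrp1, a receptor for haem bound to haemopexin, and Blvrb, a biliverdin reductase. Lrp1 read 80, 48.2 and 30.4 against 998, 849.8 and 481 (3.53 ± 0.51, adjusted p = 0.018), low on all 3 WT arrays. Blvrb read 183, 59.8 and 27.7 against 1564, 696 and 755 (3.45 ± 0.62, adjusted p = 0.027). Bach1, the haem-sensing repressor of Hmox1, read lower without being called, at 2983, 3629.6 and 2635 against 1105, 1691 and 1159 (-1.23 ± 0.38, adjusted p = 0.21).

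Of 20 lysosomal genes 3 were called higher (0.499% of all genes were), the proteases Ctsd, Ctsl and Lgmn, with a list median of 0.64. Ctsd, cathepsin D, read 1010.4, 337 and 206 in WT and 6296, 4744 and 3399 in aly (3.44 ± 0.63, adjusted p = 0.027). Lgmn, legumain, read 302, 201 and 164 against 1015, 1494 and 1791 (2.61 ± 0.49, adjusted p = 0.027). Ctsb, at 3232, 2834 and 2228 against 9297, 8731 and 11547 (1.83 ± 0.40, adjusted p = 0.055), and Lamp1, at 3723, 2855 and 1956 against 8533, 7202 and 11501 (1.69 ± 0.38, adjusted p = 0.056), missed the threshold without overlap of the genotypes. Both were called with the replicate block (adjusted p = 0.033 and 0.046), which called 5 lysosomal genes. On the 6 untreated arrays alone 6 were called, and 0 when WT replicate 2, WT replicate 3 or any 1 of the aly arrays was left out. Of 11 lipid efflux and nuclear receptor genes 2 were called higher (0.499% of all genes were), with a list median of 1.59. Lpl, lipoprotein lipase, read 1022, 99 and 164 against 3018, 2076 and 6939 (3.67 ± 0.78, adjusted p = 0.047), and Rxra, the shared partner of several nuclear receptors, 124, 26.3 and 47.2 against 515, 266 and 361 (2.41 ± 0.50, adjusted p = 0.043). Apoe, a lipid carrier of macrophages, read 3506, 641 and 1374 against 9680.3, 5278 and 17094 (2.70 ± 0.65, adjusted p = 0.083), and Nr1h3, the oxysterol receptor LXR alpha, 87, 29 and 2.6 against 259, 179 and 283 (2.51 ± 0.57, adjusted p = 0.064).

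Receptor lists gave 1 call each, all higher (0.499% of all genes were called higher). Mrc1 was the call among 19 lectin and scavenger receptors (median 0.38), Itga9 among 18 integrin and adhesion genes (median 0.06), and Fcgr1 among 13 Fc and complement receptors (median 0.40). Fcgr1, the high-affinity IgG receptor CD64 of macrophages, read 141, 30.5 and 52.3 in WT and 584, 450.4 and 884 in aly (2.99 ± 0.61, adjusted p = 0.042). Fcgr3 read 242, 52.3 and 56.2 against 876, 505 and 664 (2.65 ± 0.68, adjusted p = 0.11, and 0.045 with the block). The inhibitory receptor Fcgr2b overlapped (0.40 ± 0.50).

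Several of the largest rises lay outside these lists. Abcc3, an exporter of conjugated bile pigments and other organic anions, read 105, 2.2 and 1.1 in WT and 901, 712 and 783 in aly (4.59 ± 0.62, adjusted p = 0.018). WT replicates 2 and 3 were near 0. Col14a1, a fibril-associated collagen, read 189.9, 36.8 and 21.4 against 1232, 1353 and 1519.7 (4.22 ± 0.64, adjusted p = 0.018), and Pld3, a lysosomal nuclease, 358, 75.1 and 28.6 against 3297, 1758 and 1356 (4.13 ± 0.76, adjusted p = 0.027). The protease inhibitors Slpi and Serpinb6a rose by 3.98 ± 0.82 and 3.71 ± 0.67 (adjusted p = 0.043 and 0.027). C6, a component of the membrane attack complex, rose by 3.68 ± 0.62 (adjusted p = 0.024), from 135, 11.9 and 21.9 to 900, 458 and 755. In each of these 6 genes WT replicate 1 was again the highest WT array.

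The 8 genes called lower belonged to no macrophage or erythroid list. Sucnr1, the receptor for extracellular succinate, fell by the most. It read 286, 424 and 232 in WT and 24, 42.4 and 1.6 in aly, so the aly arrays were at the low end of the scale, and its difference was -3.22 ± 0.60 (adjusted p = 0.027). Serpinb2, plasminogen activator inhibitor type 2, read 536, 123 and 516 against 27.6, 22.1 and 29.6 (-3.03 ± 0.51, adjusted p = 0.024). P2ry10, a receptor for lysophosphatidylserine, read 905, 946 and 1344 against 281, 315 and 230.2 (-1.88 ± 0.40, adjusted p = 0.047). In each the WT arrays were all higher, WT replicate 1 among them.

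The other 5 genes called lower were less alike. Adgrl3, the adhesion receptor latrophilin 3, read 356, 403 and 299 in WT and 57.1, 60.3 and 96 in aly (-2.10 ± 0.35, adjusted p = 0.024), but its 5 other probe sets gave -1.37 to 0.52. Gm6377, a predicted gene, read 2301, 1169.7 and 1318 against 455, 384 and 188 (-2.19 ± 0.47, adjusted p = 0.047, and 0.053 with the block). Blzf1, a Golgi tether, had a difference of -2.00 ± 0.41 (adjusted p = 0.043), with 2 other probe sets at -0.30 and 0.10. Zfand4, a zinc finger gene, and Nedd1, a centrosome protein, had differences of -1.80 ± 0.38 and -1.62 ± 0.35 (adjusted p = 0.046 and 0.047). Where called genes had further probe sets, those all pointed the same way in 30 of 33 genes called higher and in 1 of 3 called lower.

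No gene was called in the lists of growth, metabolism and stress. Of 23 cell cycle genes 18 read lower, with a median of -0.35. Medians were -0.16 for 12 cholesterol synthesis genes, -0.14 for 14 apoptosis and survival genes and 0.11 for 17 immediate early and heat shock genes. They were 0.01 for 17 oxidative phosphorylation, 0.27 for 12 glycolysis and 0.22 for 12 ribosomal protein genes. Proliferation markers pointed in opposite directions. Mki67 read 2003, 2045 and 2062 in WT and 2480.4, 2109 and 2958 in aly (0.29 ± 0.32), and Aurkb, a mitotic kinase, 488, 300.2 and 221 against 116, 143 and 156 (-1.13 ± 0.44, adjusted p = 0.36).

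**Figure D4:**
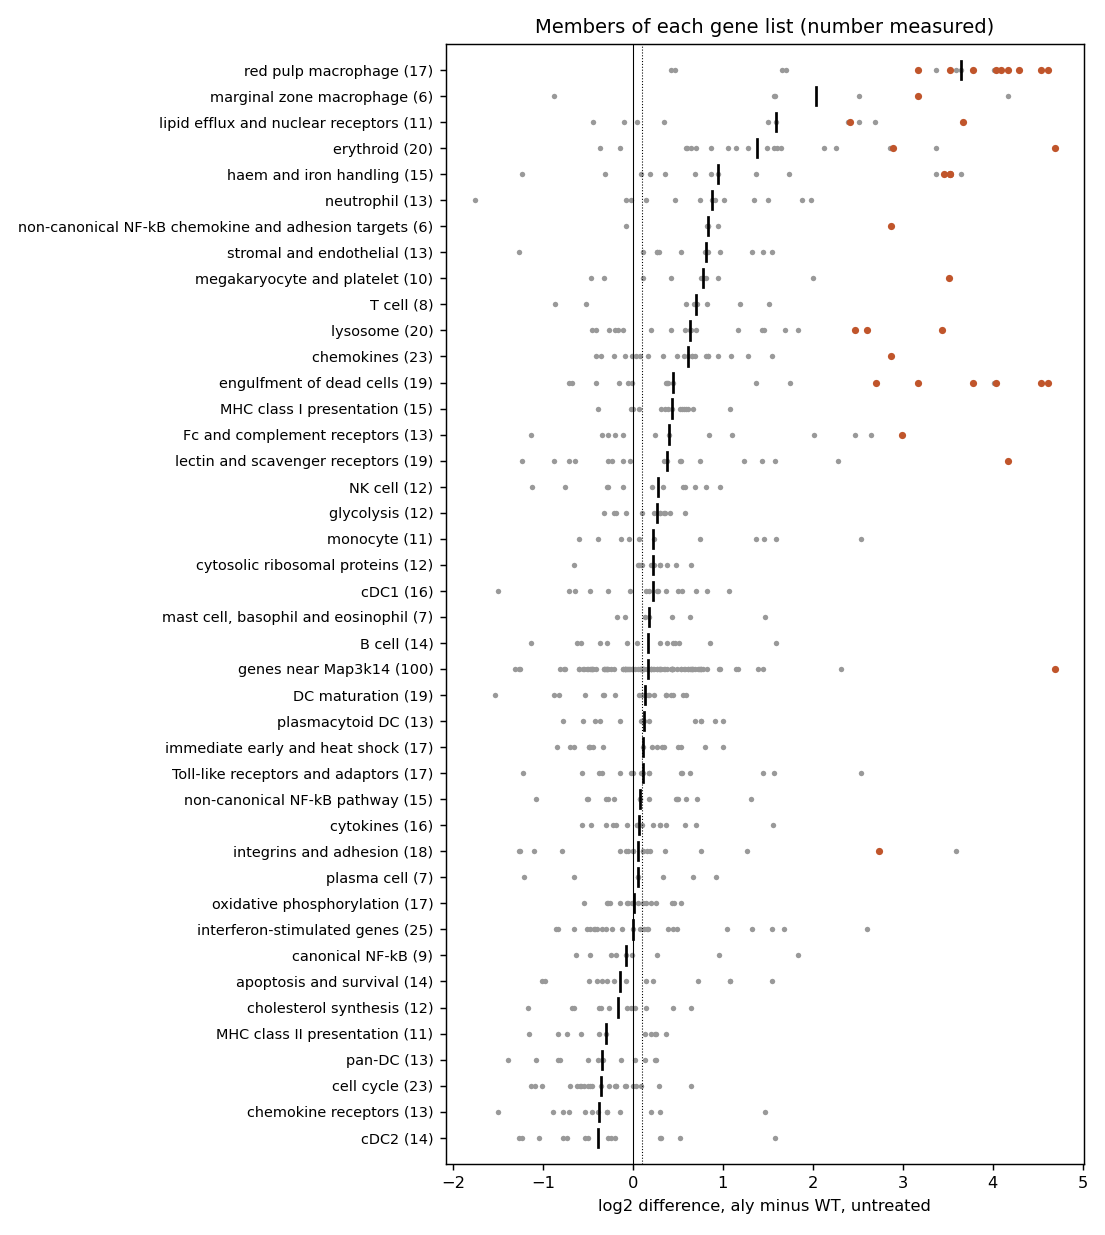
Log2 difference of aly minus WT for the members of each gene list, 1 point per gene, with called genes in orange, the list median as a black bar and the median of all genes (0.10) dotted; the number measured stands in parentheses. Red pulp macrophage genes have the highest median (3.65) and cDC2 genes the lowest (-0.39).

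Mutants kept by crossing can carry other strain variants near the mutated gene, so the 100 genes nearest Map3k14 on chromosome 11 were read as well, 50 on each side. Of these 1 was called, Slc4a1 (0.553% of all genes were called), and the median was 0.17. Slc4a1 is therefore both an erythroid gene and a neighbour of the mutation, and these cannot be told apart from its level alone. Of the 20 erythroid members, Slc4a1 included, 18 read higher in aly and 2 were called. What lay behind the Slc4a1 rise was not tested.

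The genes called at rest were then read in the 6 treated arrays, which come from other mice. Of the 75 genes higher at rest, 72 read higher in treated aly too, as did 8994 of all 15019 genes. Of the 75, 59 were higher without overlap (14.1% of all genes were). With treatment 41 were called higher (2.74% of all genes were, and 5.37% were called in either direction). Their median difference was 2.15 with treatment, against 0.19 for all genes. Without treated aly replicate 1 the median was 2.34 and 51 were called, and in a fit to the 6 treated arrays alone 2 were called. Both contrasts in the joint fit share the estimate of the spread. Slc4a1 read 89.2, 30.9 and 6.4 in treated WT and 1068, 1646 and 246 in treated aly (4.02 ± 0.71, adjusted p = 0.0058), and C1qa 1186, 321 and 182 against 5449, 3194 and 2259 (2.99 ± 0.80, adjusted p = 0.041). The treated WT array of replicate 1 was again the highest WT array for both.

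Xist read 18.2, 965 and 1784 in treated WT and 1494, 1692 and 2.2 in treated aly, and Eif2s3y 906, 1002 and 0.9 against 1.1, 0.7 and 745. These sex-linked genes thus overlapped between the treated genotypes, unlike Xist, Eif2s3y and Kdm5d at rest. The log2 3' over 5' ratio did not overlap with treatment either, at 1.37 to 1.83 in WT and 2.17 to 5.66 in aly. Its part in the treated differences was not tested. Pool sex and genotype cannot be fully told apart in the untreated arrays, and the part of sex in the rises was not tested.

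For some genes the treated arrays of the genotypes read closer, which was not called in the interaction except for Ccl22. Spic read 1182, 522 and 574 in treated WT and 2232, 656 and 1108 in treated aly (0.72 ± 0.54, adjusted p = 0.45), and Axl 843, 99.4 and 109.8 against 104, 861 and 266 (0.42 ± 0.78). Ccl22 turned: it read 6908, 2741 and 7749 in treated WT and 2349.6, 2462 and 1172 in treated aly, a difference of -1.47 ± 0.45 (adjusted p = 0.069) where it had been 2.87 ± 0.45 at rest. The test of that change, the interaction of genotype and treatment, gave -4.34 ± 0.64 (adjusted p = 0.011), among 23 genes called in the interaction (0.153%). Of the 8 genes lower at rest, 7 were lower with treatment, as were 6025 of all 15019 genes. Of the 8, 3 were lower without overlap (10.1% of all genes were). P2ry10 was called lower (-1.87 ± 0.40, adjusted p = 0.015), 1 of the 8 (2.64% of all genes were). The median of the 8 was -0.57.

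**Figure D5:**
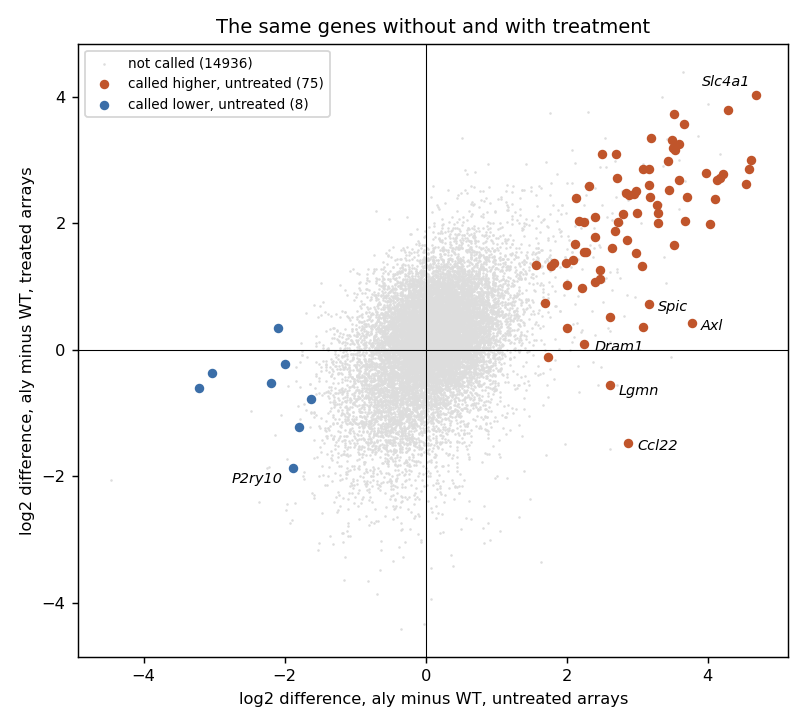
Log2 difference of aly minus WT in treated arrays (vertical) against that in untreated arrays (horizontal), 1 point per gene, with genes called higher at rest in orange and lower in blue. Of the 75 orange genes 72 lie above 0 on the vertical axis (8994 of all 15019 genes do), while Ccl22 lies below it.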

How the data were processed

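DCs were profiled on Affymetrix mouse arrays. Per the labels, RNA was extracted with Qiagen RNeasy and labelled with biotin in a second round of in vitro transcription. The deposited values are intensities on a linear scale, which the authors had scaled so that the 2% trimmed mean is 150 on every array; no source used here gives the software or the background step. Of 45101 probe sets, 34945 carried 1 gene symbol in the platform annotation. A probe set was kept if 3 or more arrays placed it above their 40th percentile, and each of 15019 genes took the probe set with the highest mean. Values were analysed as log2(intensity + 16) with limma 3.58.1 in R 4.3.3, with 1 mean per group over 12 arrays and no further normalization; figures used matplotlib 3.10.9. The model was tested on simulated data.

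Named genes were the 15 largest rises and falls among called genes without overlap and with at least 1 log2 unit of difference, the first 4 and up to 6 lowest-p members of each of 41 lists, and a fixed set of DC, NF-kB and macrophage genes. Members and lists were chosen with earlier results of these data known. Deviations of same-numbered WT and aly arrays from their group means correlated at 0.16, 0.23 and 0.18, against -0.13 to -0.04 for other pairs. Within a group the deviations cancel, so positive values for same-numbered pairs go with negative ones for the others. The labels do not say that the numbers pair the samples, and the main fit left them out. With the replicate number as a block, 133 genes were called. Promoter sequences are from RefSeq. Alternatives covered the offset, filter, scaling, arrays left out, blocks, covariates, array weights and probe-set averaging.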

Additional observations from a re-analysis of the deposited data

Results flagged for a closer look

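For 5 named genes the genotype difference itself differed between treated and untreated DCs, by the limma interaction test over all 12 arrays. Ccl22 gave -4.34 ± 0.64 log2 units (adjusted p = 0.011), from 2.87 at rest to -1.47 with LPS and anti-CD40. Gbp2, an interferon-induced GTPase, gave -3.96 ± 0.55 (adjusted p = 0.01), from 1.32 to -2.64. Il15, a cytokine that sustains NK and memory T cells, gave -3.61 ± 0.50 (adjusted p = 0.01), from 0.36 to -3.25. Prdm1, which encodes the repressor Blimp-1, gave -3.92 ± 0.74 (adjusted p = 0.046), from 0.92 to -3.00. Cd80, a costimulatory ligand, gave -2.96 ± 0.55 (adjusted p = 0.046), from -0.32 to -3.28. Of the 5, only Ccl22 was also called at rest. The treated aly arrays include replicate 1, whose 3' over 5' ratio stood apart.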

How the results depend on the processing

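The number of genes called changed with the processing, given here as all, higher and lower. None of the 83 changed sign where tested, which the lack of overlap between genotypes fixes for most alternatives. It was 0, 0 and 0 with an offset of 1 or with median centring (1505 and 1480 genes at an unadjusted limma p under 0.05), 51, 44 and 7 with an offset of 64, and 39, 36 and 3 without the filter. Fits to the 6 untreated arrays gave 393, 281 and 112, and array weights 617, 413 and 204. Replicates 2 and 3 alone gave 231, 216 and 15. The replicate block gave 133, 122 and 11, the spike-in batch block 176, 158 and 18, and the 3' over 5' covariate 133, 124 and 9. The share called higher was 90.4%, and 71.5%, 72.7% and 66.9% with the 6 untreated arrays, without treated aly replicate 1 and with array weights. Leaving out 1 array at a time, treated aly replicate 1 included, ranged from 0 to 396 for all, 0 to 288 for higher and 0 to 108 for lower. Leaving out treated aly replicate 1 and 1 untreated array, added after seeing the data, ranged from 23 to 282, 21 to 248 and 2 to 57. The Y-linked covariate, also added then, gave 1, 1 and 0. The cause of these shifts was not tested. The treated contrast called 807 genes, and 27 on the 6 treated arrays alone. With 3 pools a group and a median standard error of 0.43, no gene was called at a rise under 1.57 log2 units. The smallest called fall was that of Nedd1, at -1.62. DC genes such as Xcr1 (-1.50), Kmo (-1.39) and Sirpa (1.58) were not called, so a missing call does not show an unchanged gene. Pool sex, RNA length and genotype cannot be told apart fully in 6 arrays.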
